A study of Mus musculus with 6 samples.

Results

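The nonclassical, or class Ib, genes of the major histocompatibility complex (MHC) were followed in mouse spleen across an array comparison of F1 females. The members were 10 genes given by symbol (H2-Q1, H2-Q2, H2-Q4, H2-Q10, H2-T3, H2-T10, H2-T22, H2-T23, H2-T24 and H2-M3), and a probe set was taken when the platform annotation listed a member among its symbols. This gave 13 of the 45037 probe sets tested, for 9 of the 10 genes. H2-Q1 had none listed. Of the 13 probe sets, 6 carried 1 symbol and measured H2-Q2, H2-Q10, H2-T3, H2-T24 and H2-M3. The other 7 carried several symbols and are reported apart, and the 4 genes H2-T23, H2-T22, H2-T10 and H2-Q4 were reached only through such probe sets.

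Both groups were adult females, and the labels name no treatment apart from the anaesthesia and euthanasia common to all of them. Of the 6 samples, 3 were from offspring of AKR/J and FVB/NJ (AKR/J F1) and 3 from offspring of DBA/2J and FVB/NJ (DBA/2J F1). Every animal therefore carried one FVB/NJ copy of every autosomal gene, and the crosses differed in the other copy. AKR/J, DBA/2J and FVB/NJ are known to carry different MHC haplotypes, named k, d and q, none of which is the b haplotype of the C57BL/6J reference genome. RNA came from whole spleen, a mixture of B cells, T cells, macrophages, red cell precursors and stroma, so fewer cells of a type and less RNA per cell cannot be told apart. Pancreatic enzyme transcripts were also abundant in every sample but DBA/2J F1 replicate 3. The mean of 7 such genes was 6.46 there and 13.43 or more elsewhere. Their part in the values of the members and lists was not tested. The labels do not state whether the 3 samples of a cross came from separate animals, so the errors and p-values measure only the spread between these 6 samples, which may be technical.

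Class Ib molecules resemble the classical class I molecules H2-K and H2-D in having a heavy chain paired with beta-2 microglobulin, but they vary little between individuals and each serves a narrower purpose. H2-T23 encodes Qa-1, which shows a leader peptide of classical class I molecules to the CD94/NKG2 receptors of NK cells. H2-T10 and H2-T22 encode ligands of a subset of gamma-delta T cells, H2-T3 encodes the thymus leukaemia antigen that binds the CD8 alpha homodimer, and H2-M3 presents formylated bacterial peptides to CD8 T cells. H2-Q10 encodes a secreted class I molecule made mainly by liver. Many class I genes respond to interferon and to the transactivator Nlrc5 through short promoter elements.

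Promoters are shown for H2-Q10, H2-T23, H2-T22 and H2-M3. H2-Q10 and H2-T23 had the probe sets past the threshold. The H2-T22 probe sets, shared with H2-T10 and H2-T9, leaned higher in AKR/J F1 and H2-M3 lower, but none of these passed. A probe set of H2-T3 leaned further lower in AKR/J F1 and also did not pass, and the H2-T3 promoter is not shown. The sequences are those of RefSeq on GRCm38.p6, which held 7 of the 10 members. They are C57BL/6J reference sequence and not that of the parental strains. Each runs from 250 bases before the annotated start to 50 bases after it, at chr17:35469839-35470138 (plus strand), chr17:36032652-36032951 (minus strand), chr17:36042693-36042992 (minus strand) and chr17:37269984-37270283 (plus strand). Capitals mark matches, on either strand, to TTTCACTT (the core of the interferon-stimulated response element), TGATGAC (a core of the X box of class I promoters) and CCAAT (the Y box core), and no matches overlapped.
H2-Q10: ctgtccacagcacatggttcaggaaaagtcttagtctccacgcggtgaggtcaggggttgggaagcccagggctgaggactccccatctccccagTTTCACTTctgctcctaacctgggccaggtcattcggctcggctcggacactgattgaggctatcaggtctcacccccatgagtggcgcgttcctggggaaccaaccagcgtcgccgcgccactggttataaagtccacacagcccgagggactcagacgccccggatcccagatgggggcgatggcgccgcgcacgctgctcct
H2-T23: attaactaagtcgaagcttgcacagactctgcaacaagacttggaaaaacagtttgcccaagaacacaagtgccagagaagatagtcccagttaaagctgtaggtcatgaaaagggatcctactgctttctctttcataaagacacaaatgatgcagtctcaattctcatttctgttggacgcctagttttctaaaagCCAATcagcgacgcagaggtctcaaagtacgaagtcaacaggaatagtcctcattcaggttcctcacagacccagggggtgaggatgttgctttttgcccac
H2-T22: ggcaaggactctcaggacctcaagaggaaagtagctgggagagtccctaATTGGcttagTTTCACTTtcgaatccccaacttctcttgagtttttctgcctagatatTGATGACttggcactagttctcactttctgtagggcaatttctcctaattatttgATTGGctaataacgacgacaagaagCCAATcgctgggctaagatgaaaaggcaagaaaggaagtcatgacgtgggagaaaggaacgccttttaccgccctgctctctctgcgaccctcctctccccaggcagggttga
H2-M3: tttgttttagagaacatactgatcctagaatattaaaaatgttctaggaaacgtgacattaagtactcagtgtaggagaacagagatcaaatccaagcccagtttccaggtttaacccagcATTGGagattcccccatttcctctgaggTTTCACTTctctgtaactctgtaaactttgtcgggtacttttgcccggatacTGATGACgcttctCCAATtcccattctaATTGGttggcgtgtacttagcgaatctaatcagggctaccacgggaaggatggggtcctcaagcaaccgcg
TTTCACTT occurred in 5 of the 7 member promoters (H2-Q4, H2-Q10, H2-T22, H2-T3 and H2-M3), against 1.60% of 32851 promoter windows of the same length. TGATGAC occurred in 3 of the 7 (H2-Q4, H2-T22 and H2-M3), against 3.23% of all windows. CCAAT occurred in 5 of the 7 (H2-Q2, H2-Q4, H2-T22, H2-T23 and H2-M3), against 37.4% of all windows. The H2-Q10 window held TTTCACTT and neither of the other motifs, and the H2-T23 window held CCAAT alone. The 7 windows belong to genes of one family, so they are not independent examples, and a match describes only these letters.

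Of the 13 probe sets, 2 differed at an adjusted p under 0.05 in limma, both of them higher in AKR/J F1: a dim probe set of H2-T23 and the probe set of H2-Q10. The count of 2 is 15.4% of the members, against 10.4% of all probe sets tested in either direction (5.14% higher in AKR/J F1 and 5.26% higher in DBA/2J F1). Of the 6 probe sets with 1 symbol, 1 passed (H2-Q10), and of the 7 with several, 1 passed (H2-T23). An unadjusted p under 0.05 was reached by 4 of the 13 and by 30.7% of all probe sets. The 3 arrays of one cross lay wholly above those of the other for 4 of the 13 (3 with AKR/J F1 above and 1 with DBA/2J F1 above), against 36.1% of all probe sets, of which 17.7% had AKR/J F1 above and 18.3% DBA/2J F1. The members' median difference was 0.08 on the log2 scale (AKR/J F1 minus DBA/2J F1, as for all differences here), with 9 positive and 4 negative, and the median over all probe sets was -0.02. Their median absolute difference, 0.164, lay beside 0.159 for all probe sets. These shares and medians lay close to the background.

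**Figure D1:**
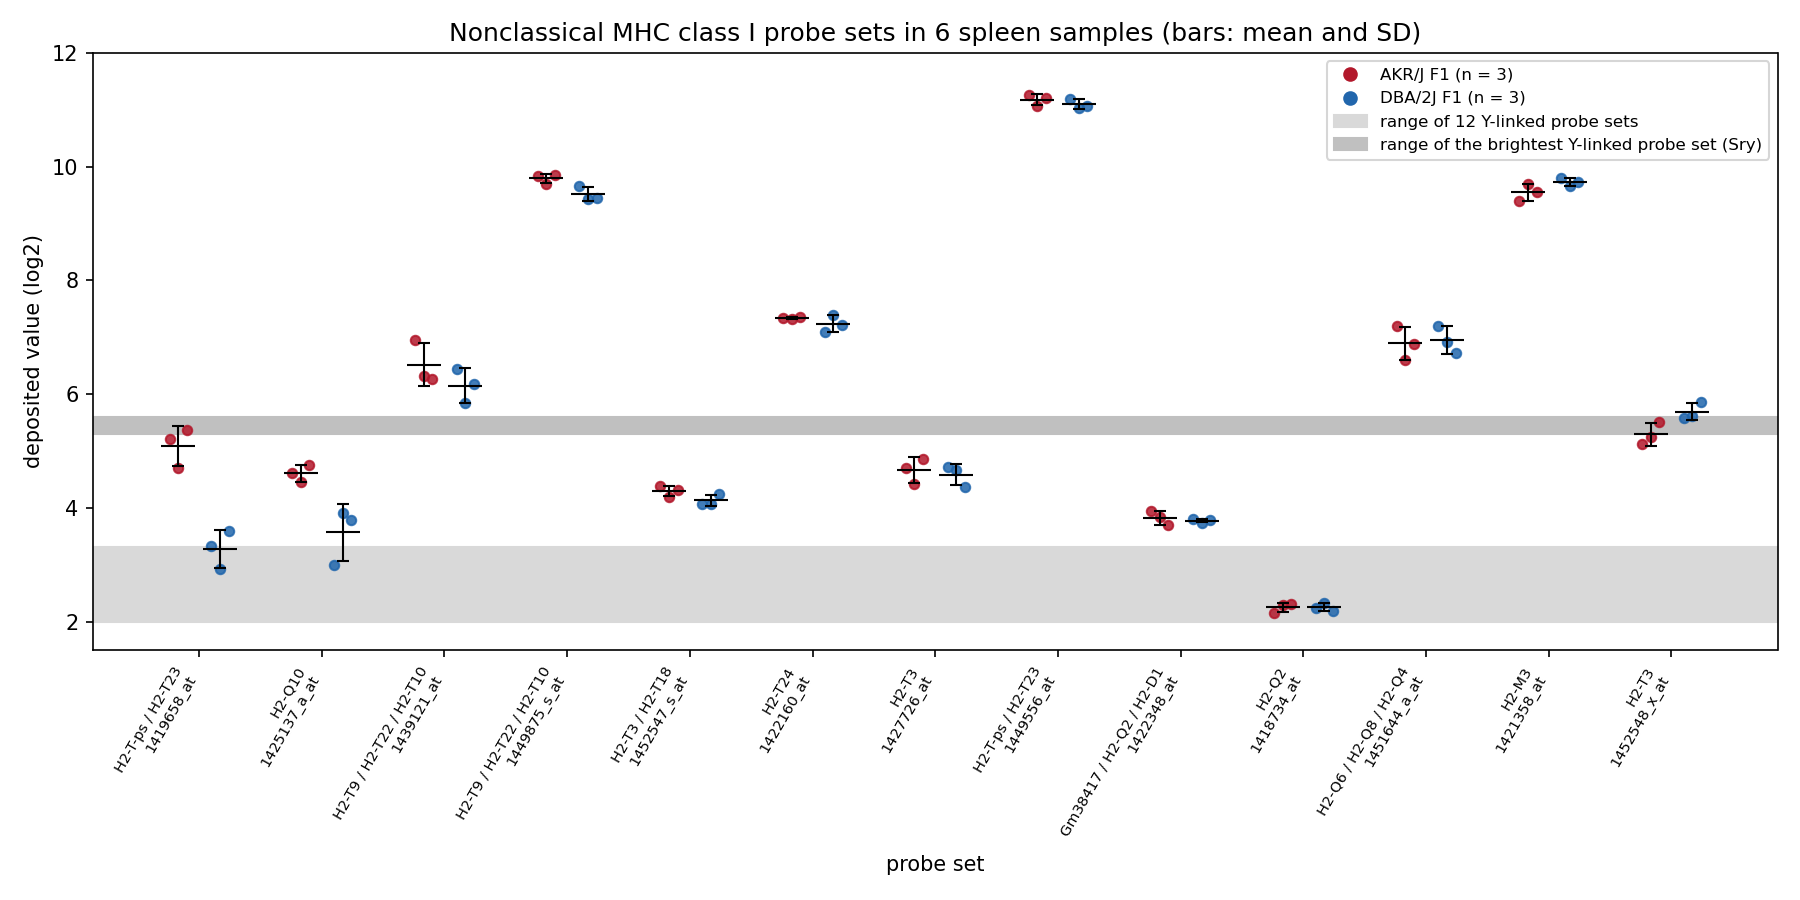
Deposited log2 value of each of the 13 probe sets (x axis) in the 3 samples of AKR/J F1 and the 3 of DBA/2J F1, with the mean and SD as bars and the probe sets ordered by difference. The pale grey band, 2.00 to 3.31, is the range of 12 of 13 probe sets of Y-linked genes in these females, and the darker band, 5.30 to 5.60, that of the 13th, an Sry probe set. The DBA/2J values of the dim H2-T23 and H2-Q10 probe sets reach into the lower band, and both crosses lie below the top of the upper one.

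The Qa-1 gene H2-T23 had 2 probe sets, each also annotated to the related H2-T-ps, and they differed in what they showed. The bright one stood at 11.25, 11.07 and 11.20 in AKR/J F1 and at 11.20, 11.03 and 11.07 in DBA/2J F1. The crosses overlapped, with a difference of 0.08 ± 0.09 (SE; 95% interval -0.13 to 0.28, limma adjusted p = 0.583). The dim one stood at 5.21, 4.70 and 5.37 in AKR/J F1 and at 3.32, 2.92 and 3.59 in DBA/2J F1. Every AKR/J value lay above every DBA/2J value. The difference was 1.81 ± 0.21 (SE), or 3.51-fold (95% interval 2.52 to 4.89), with an adjusted p of 0.00405 in limma, and the SD within a cross was 0.35 and 0.34. As a guide to background, 13 probe sets of Y-linked genes, whose transcripts females lack, were read in the same arrays. Of these, 12 lay between 2.00 and 3.31 and the 13th, an Sry probe set with the _x_at suffix of probes that can bind other transcripts, between 5.30 and 5.60; setting it apart was chosen after its values were seen. Of the DBA/2J values of the dim H2-T23 probe set, 1 lay inside the range of the 12 and the others just above it. All 6 of its values lay below 5.60, so against all 13 Y-linked probe sets it was not above background in either cross. Leaving out any 1 array kept this probe set past the threshold, with adjusted p between 0.00619 and 0.0220. Within each array, the bright probe set exceeded the dim one by 6.05, 6.37 and 5.83 in AKR/J F1 and by 7.88, 8.11 and 7.47 in DBA/2J F1. The gap was thus wider in every sample of DBA/2J F1, by 1.74 on average. A change in amount of a transcript form of H2-T23 or H2-T-ps and a change in its binding to these probes cannot be told apart. Nor do these values separate the 2 genes.

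**Figure D2:**
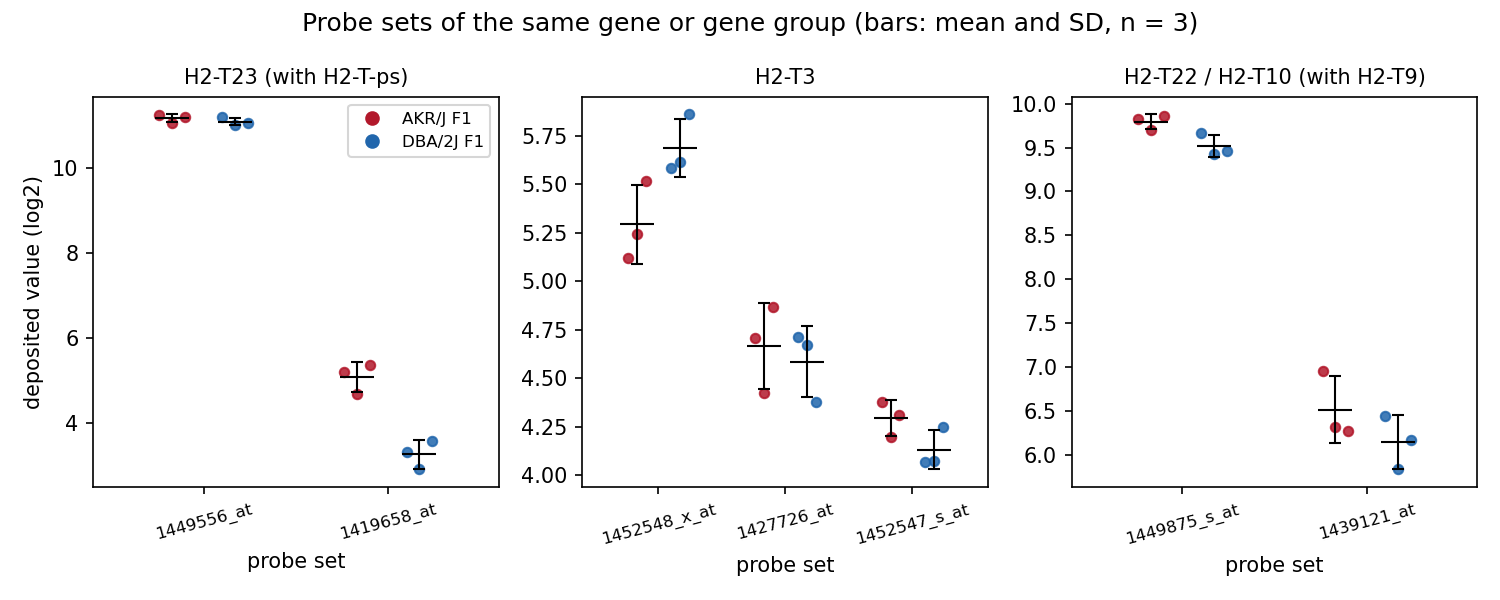
Deposited log2 values of the probe sets that share a gene or gene group, in the 3 samples of each cross, with the mean and SD as bars; each panel has its own y axis. The crosses separate at the dim H2-T23 probe set (means 5.09 and 3.28) and overlap at the bright one (means 11.18 and 11.10).

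H2-T22 and H2-T10, the gamma-delta T cell ligands, shared 2 probe sets with H2-T9, and the 3 genes cannot be separated on this array. The brighter one stood at 9.83, 9.70 and 9.86 in AKR/J F1 and at 9.66, 9.43 and 9.46 in DBA/2J F1. The lowest AKR/J value, 9.70, lay just above the highest DBA/2J value, 9.66. The difference was 0.28 ± 0.09 (SE), or 1.21-fold (95% interval 1.05 to 1.41), and did not pass (limma adjusted p = 0.0899). Without DBA/2J F1 replicate 1 it was 0.35 with an adjusted p of 0.0497 in limma, and without any other single array the adjusted p was between 0.118 and 0.222. The other probe set stood at 6.96, 6.32 and 6.27 against 6.45, 5.84 and 6.17. Its crosses overlapped, replicate 1 being the highest of its cross in both, and the difference of 0.37 ± 0.21 did not pass (limma adjusted p = 0.270). Both probe sets had positive differences in every alternative tried.

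H2-T3, the thymus leukaemia antigen gene, had 3 probe sets, which did not give the same sign. The first stood at 4.71, 4.42 and 4.87 in AKR/J F1 and at 4.71, 4.67 and 4.37 in DBA/2J F1, a difference of 0.08 ± 0.14 (SE; limma adjusted p = 0.720). The crosses overlapped over most of their range, and the difference was negative in 2 of 12 alternatives. The second, whose _x_at suffix marks probes that can bind other transcripts, stood at 5.12, 5.24 and 5.52 against 5.58, 5.62 and 5.86. All 3 DBA/2J values lay above the AKR/J values, and the difference of -0.39 ± 0.12 (95% interval -0.68 to -0.11) did not pass (limma adjusted p = 0.0769). The third, also annotated to H2-T18, stood at 4.38, 4.20 and 4.31 against 4.07, 4.07 and 4.25, with overlap and a difference of 0.16 ± 0.09 (limma adjusted p = 0.255). All values of the H2-T3 probe sets lay above the 12 lower Y-linked probe sets. Those of the probe sets without the _x_at suffix lay below the Sry _x_at probe set (5.30 to 5.60). Against all 13 Y-linked probe sets they were thus not above background in either cross. The H2-T3 _x_at probe set, at 5.12 to 5.86, reached below and above the Sry range. H2-T3 is known from intestinal epithelium. Of 6 measured gut epithelial genes 1 passed, the adhesion molecule gene Epcam, at 6.01 and 5.35 (means, n = 3; difference 0.66 ± 0.09, SE, limma adjusted p = 0.00645), and it passed in all 12 alternatives. The mean level of the 6 was 4.21 to 4.38 in AKR/J F1 and 4.12 to 4.21 in DBA/2J F1. Among these genes the gut transcription factor gene Cdx1 stood at 3.62 and 3.57, the microvillus gene Vil1 at 2.95 and 2.99, the lipid carrier gene Fabp2 at 2.53 and 2.57, the gut transcription factor gene Cdx2 at 4.27 and 4.49, and the galectin gene Lgals4 at 6.28 and 6.05 (means, n = 3). The part of Epcam-expressing cells in the H2-T3 values was not tested.

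H2-M3, which presents formylated peptides, stood near the bright end of the members. It stood at 9.39, 9.70 and 9.55 in AKR/J F1 and at 9.80, 9.66 and 9.74 in DBA/2J F1. The crosses overlapped through AKR/J F1 replicate 2, the highest of its group. The difference of -0.19 ± 0.10 (SE; 95% interval -0.41 to 0.04) did not pass (limma adjusted p = 0.236), and it was negative in all 12 alternatives, between -0.26 and -0.11. H2-T24, a less studied gene of the T region, stood at 7.35, 7.32 and 7.36 in AKR/J F1 and at 7.10, 7.40 and 7.21 in DBA/2J F1. The AKR/J values spanned a narrow range inside that of DBA/2J F1, and the difference was 0.11 ± 0.09 (95% interval -0.11 to 0.33, limma adjusted p = 0.460).

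**Figure D3:**
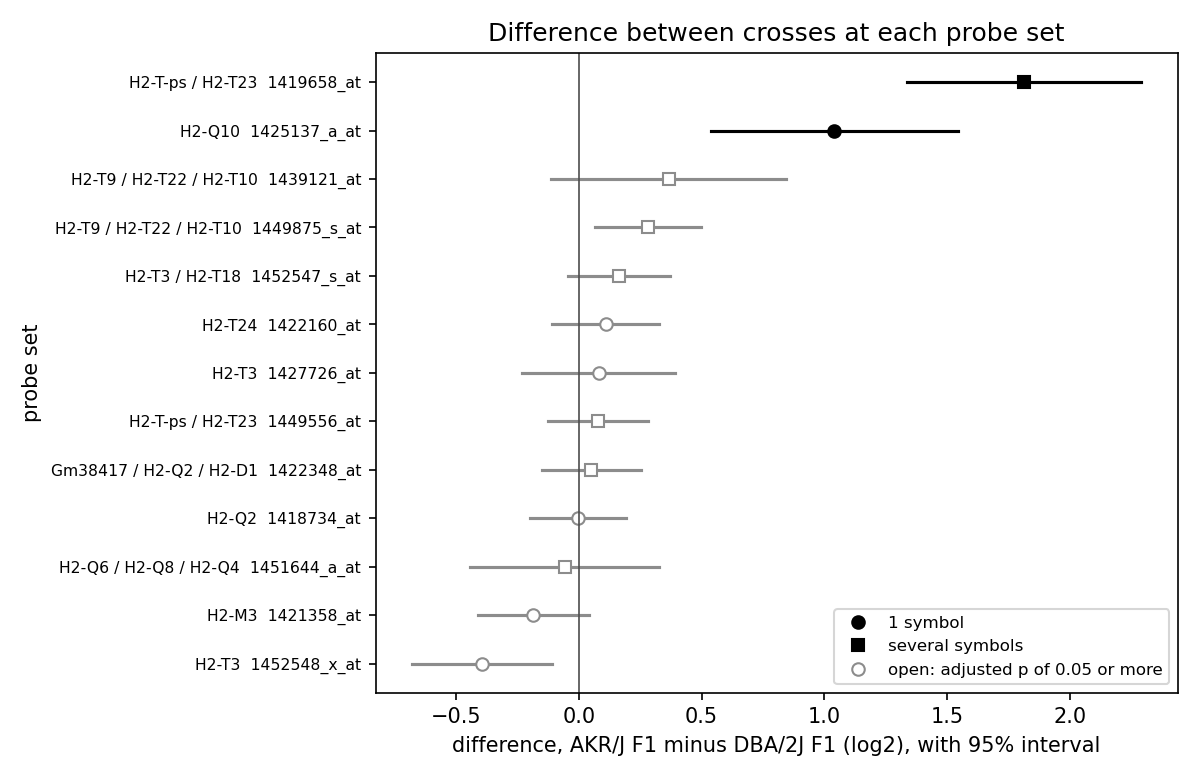
Difference between crosses (x axis, log2, AKR/J F1 minus DBA/2J F1) at each of the 13 probe sets (y axis), with its 95% interval from limma. Filled symbols passed an adjusted p of 0.05, circles carry 1 symbol and squares several; the 2 filled points are the dim H2-T23 probe set at 1.81 and H2-Q10 at 1.04.

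In the Q region, H2-Q10 was the member with a difference. Its probe set stood at 4.62, 4.45 and 4.75 in AKR/J F1 and at 2.997, 3.92 and 3.79 in DBA/2J F1. The AKR/J values lay together above all DBA/2J values, among which replicate 1 was the lowest. The difference was 1.04 ± 0.22 (SE), or 2.06-fold (95% interval 1.45 to 2.92), with an adjusted p of 0.0278 in limma, and the SD was 0.15 in AKR/J F1 and 0.50 in DBA/2J F1. The call was lost without AKR/J F1 replicate 1, 2 or 3 (adjusted p = 0.0849, 0.0594 and 0.0846 in limma) and without DBA/2J F1 replicate 3 (0.0533). It held without DBA/2J F1 replicate 1 or 2 (0.00927 and 0.0435). DBA/2J F1 replicate 1 lay in the range of the 12 lower Y-linked probe sets, and all 6 values lay below those of the Sry _x_at probe set (5.30 to 5.60).

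H2-Q10 is best known as a liver gene. The mean of 6 measured liver markers was 4.29 to 4.40 in AKR/J F1 and 4.38 to 4.47 in DBA/2J F1. Among them the thyroid hormone carrier gene Ttr was the brightest, at 6.69, 6.61 and 6.83 in AKR/J F1 and at 6.37, 6.54 and 5.86 in DBA/2J F1. Ttr lay above the array medians and, like H2-Q10, higher in AKR/J F1 without overlap, but its difference of 0.46 ± 0.17 (SE) did not pass (limma adjusted p = 0.108). Albumin (Alb) stood at 3.92 and 3.93, fibrinogen beta (Fgb) at 3.14 and 3.12 and Ahsg at 3.67 and 3.78 (means, n = 3). Apoa2 stood at 4.31 and 4.51, with every DBA/2J value above every AKR/J value. Its difference of -0.20 ± 0.09 (SE) did not pass (limma adjusted p = 0.159). Of the 6, 1 passed, the apolipoprotein gene Apoa1, and it was lower in AKR/J F1 (-0.49, limma adjusted p = 0.0316). With 1 array left out Apoa1 passed only without DBA/2J F1 replicate 1, and after quantile normalization it did not pass. Pancreatic enzyme transcripts, which were near the top of the scale in 5 samples, had a mean of 13.90 to 13.94 in AKR/J F1 and of 13.43, 13.76 and 6.46 in DBA/2J F1 replicates 1, 2 and 3. H2-Q10 stood at 3.92 in replicate 2, with abundant pancreatic transcripts, and at 3.79 in replicate 3, with few. Without replicate 3 its difference was 1.15. The part of liver or pancreatic transcripts in the H2-Q10 values was not tested.

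The other Q region members gave no difference past the threshold. H2-Q2 at its own probe set stood between 2.15 and 2.33 in all 6 arrays, inside the range of the 12 lower Y-linked probe sets, so no level above background was measured (difference 0.00 ± 0.09, SE; limma adjusted p = 0.990). The probe set that H2-Q2 shares with the classical gene H2-D1 and with Gm38417 stood between 3.70 and 3.95 (difference 0.05 ± 0.09, limma adjusted p = 0.723). These values lay above the 12 lower Y-linked probe sets and below the Sry _x_at probe set. H2-Q4 shared its probe set with H2-Q6 and H2-Q8, which stood at 7.20, 6.61 and 6.88 in AKR/J F1 and at 7.21, 6.92 and 6.73 in DBA/2J F1. The crosses overlapped fully, with a difference of -0.06 ± 0.17 (95% interval -0.44 to 0.33, limma adjusted p = 0.841).

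Non-member genes lying between the members on the chromosome were sparsely measured. In the Q region, 1 of 10 had a probe set with 1 symbol, H2-Q5. Its brighter probe set was lower in AKR/J F1 (-0.50 ± 0.13, limma adjusted p = 0.0441) and its other one was higher (0.66 ± 0.12, adjusted p = 0.0160), so H2-Q5 has opposite signs at its 2 probe sets. The probe set shared by H2-Q7 and H2-Q9, which encode the Qa-2 antigen, was lower in AKR/J F1 (-0.37 ± 0.08, adjusted p = 0.0272 in limma). It was chosen after its values were seen, as was the second H2-Q5 probe set. With 1 array left out, the second H2-Q5 probe set passed only without AKR/J F1 replicate 2 or DBA/2J F1 replicate 1, and the H2-Q7 and H2-Q9 probe set only without DBA/2J F1 replicate 1. In the T region 2 of 14 intervening genes were measured and neither passed (H2-Bl at -0.04 and 2410017I17Rik at 0.00). Beside H2-M3, the nearest measured genes Ubd (0.33) and Olfr112 (-0.14) did not pass.

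A few genes of class I peptide supply and regulation were higher in AKR/J F1. Of 19 measured genes of assembly, peptide supply and regulation, 4 were higher in AKR/J F1, none was higher in DBA/2J F1 and 15 did not pass. This is 21.1%, against 12.5% of 18193 genes at their brightest probe set (6.29% higher in AKR/J F1 and 6.17% in DBA/2J F1). With dim probe sets left out 5 of the 19 passed, against 16.3% of all probe sets kept. Of all kept probe sets that passed, 58.3% were higher in AKR/J F1, and the median difference of all kept was 0.06. The list's median was 0.27, against -0.01 for all genes, and 18 of the 19 values were positive. The transactivator Nlrc5 stood at 8.20, 8.09 and 8.32 in AKR/J F1 and at 7.83, 7.71 and 7.68 in DBA/2J F1 (0.46 ± 0.09, limma adjusted p = 0.0234), without overlap. The immunoproteasome subunit genes Psmb8 and Psmb9 each differed by 0.41 (adjusted p = 0.0306 and 0.0374), and the peptide transporter gene Tap2 by 0.41 (0.0339). The light chain gene B2m stood at 13.60 and 13.52 (means), a difference of 0.07 ± 0.09 (limma adjusted p = 0.608), and Tap1 differed by 0.05. Tapbp (0.23), Pdia3 (0.15), Calr (0.13) and Canx (-0.05) did not pass. With AKR/J F1 replicate 1, 2 or 3 left out the count of 4 was 0, 1 or 0. Of all probe sets 2.22%, 3.36% or 2.58% then passed. With DBA/2J F1 replicate 1, 2 or 3 left out the count was 6, 0 or 0. The shares of all probe sets were then 10.6%, 2.55% or 2.78%. After quantile normalization the count was 0, against 7.09% of all probe sets. There 17 of the 19 values were positive and 7 had an unadjusted p under 0.05 in limma, against 12 as deposited. Some markers of immune cells were also higher in AKR/J F1. The 6 measured B cell markers had a mean of 11.53 to 11.66 in AKR/J F1 and 11.15 to 11.46 in DBA/2J F1, without overlap. Of these, 2 passed (Cd79a and Cr2, higher in AKR/J F1), while the crosses overlapped at Cd79b and Fcer2a. The 5 measured dendritic cell markers had a mean of 7.06 to 7.16 and 6.74 to 6.997, also without overlap, and 2 passed (Zbtb46 and Siglech, higher in AKR/J F1). Itgax (0.20), Flt3 (-0.04) and Xcr1 (-0.01) did not. Of 6 red pulp macrophage markers 1 passed (Cd5l, 0.71, higher in AKR/J F1). Vcam1 (-0.08) and Hmox1 (-0.03) were negative and the rest positive. With 1 array left out, 0 to 5 B cell and 0 to 2 dendritic cell markers passed. The part of cell numbers in the values of the list was not tested.

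**Figure D4:**
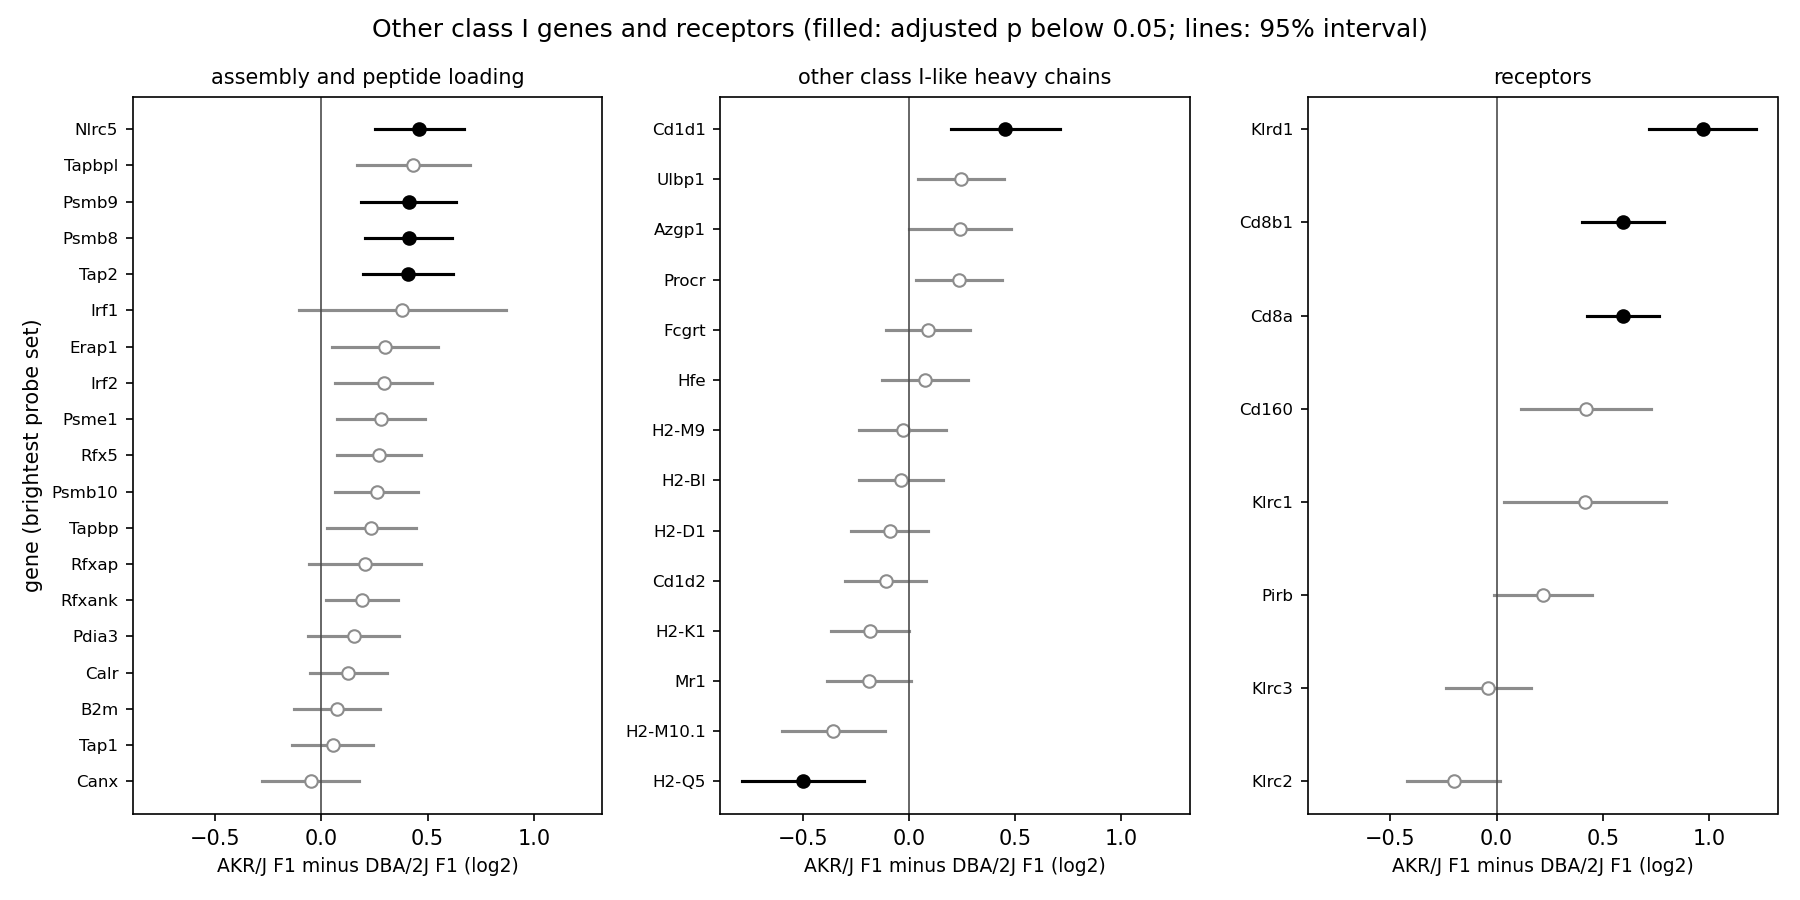
Difference between crosses (x axis, log2, AKR/J F1 minus DBA/2J F1) with its 95% interval from limma for each gene (y axis) of the 3 lists, at the gene's brightest probe set. Filled points passed an adjusted p of 0.05; these are Nlrc5, Psmb9, Psmb8 and Tap2, then Cd1d1 and H2-Q5, then Klrd1, Cd8b1 and Cd8a.

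Other class I-like heavy chains were mixed. Of 14 measured, 1 was higher in AKR/J F1, the lipid-presenting Cd1d1 (0.45 ± 0.11, limma adjusted p = 0.0418), 1 was higher in DBA/2J F1 at the probe set used, H2-Q5, and 12 did not pass. The share of 14.3% lay near the 12.5% of all genes, and the median was -0.03. Without any single array 0 or 1 passed, and the 1, without DBA/2J F1 replicate 1, was Cd1d1. In these fits 2.22% to 10.6% of all probe sets passed, the 10.6% being without DBA/2J F1 replicate 1.

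Receptors of class Ib products were higher in AKR/J F1 at 3 of 8 measured genes, 0 were higher in DBA/2J F1, and 5 did not pass. This is 37.5%, against 12.5% of all genes, with a median of 0.42. With dim probe sets left out 3 of 6 passed, against 16.3% of all probe sets kept. Klrd1, which encodes the CD94 chain that pairs with NKG2 to bind Qa-1, stood at 8.36, 8.15 and 8.28 against 7.38, 7.42 and 7.09 (0.97 ± 0.11, limma adjusted p = 0.00390). No value of one cross reached the other. Its NKG2A partner Klrc1 stood at 5.80, 5.97 and 6.50 against 5.75, 5.63 and 5.64, and did not pass (0.42 ± 0.17, adjusted p = 0.133). Klrc2 and Klrc3 lay in the range of the 12 lower Y-linked probe sets. The CD8 genes Cd8a and Cd8b1, whose products bind class I heavy chains, each differed by 0.59 (adjusted p = 0.00523 and 0.00823). These calls of Klrd1, Cd8a and Cd8b1 held in all 12 alternatives. Beside them, 7 of 7 measured T cell markers passed (4 to 7 with 1 array left out), at a mean of 8.62 to 8.73 in AKR/J F1 and 8.14 to 8.19 in DBA/2J F1, Cd8a being one of them. Of 4 measured NK cell markers 2 passed, Klrd1 itself and Eomes, whereas Ncr1 (-0.02) and Gzma (0.01) did not. With 1 array left out Eomes passed only without DBA/2J F1 replicate 1. The part of cell numbers in the receptor values was not tested.

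The arrays had medians between 5.04 and 5.10. Their spread over all probe sets was wider in AKR/J F1 (SD 2.32 to 2.34) than in DBA/2J F1 (2.26 to 2.28), without overlap. The part of this spread in the differences was not tested. Markers of spleen were present, among them the stromal transcription factor gene Tlx1 (7.70 and 7.59, means) and the B cell genes given above. Red cell precursor markers were higher in DBA/2J F1 at 5 of 5 measured genes (3 to 5 with 1 array left out), with a mean of 7.67 to 8.38 in AKR/J F1 and 9.40 to 10.20 in DBA/2J F1. Their part in the members' values, which are relative within an array, was not tested.

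The pattern of H2-Q10 over the 6 arrays was set beside that of 16325 other named genes, by the Euclidean distance between values centred on each gene's own mean. The nearest were Trpc2 (distance 0.329), Gabra4 (0.560), Senp1 (0.570), Efr3b (0.594) and Zzef1 (0.624), against a median distance of 1.48. Trpc2 stood at 7.19, 7.06 and 7.18 in AKR/J F1 and at 5.75, 6.25 and 6.27 in DBA/2J F1, with replicate 1 the lowest of DBA/2J F1 as for H2-Q10. A small distance over 6 arrays is a description of these values only.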

How the data were processed

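Total RNA from 6 spleen samples was hybridised to Affymetrix arrays, 1 per sample. The values the authors deposited are log2 levels, as their range shows, with nearly equal array medians. Per the submitters' processing notes MAS5 and RMA were used, with no role given, and no genome build is named. No detection calls were used. Of 45101 probe sets, 64 controls were left out. Of the 45037 tested, platform annotation gave 1 symbol to 34945, several to 932 and none listed here to 9160. No 2 arrays held the same values (121 to 181 identical probe sets in any pair).

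Groups and replicate numbers came from the titles. Differences were fitted at each probe set by lmFit and eBayes of limma, version 3.58.1 (R 4.3.3; data.table, version 1.17.8; statmod, version 1.5.0), on all 6 arrays without covariates, with Benjamini-Hochberg adjustment over all probe sets and a threshold of 0.05. The procedure was tested on simulated data. An exact permutation test of 3 against 3 cannot go below p = 0.1. The number of arrays limits the precision.

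Members, the 3 gene lists and the marker lists were chosen with earlier results of these data known. List genes used the brightest probe set with 1 symbol. All member probe sets are named, with up to 4 genes per list past the threshold by smallest adjusted p, the neighbouring genes and the 5 genes nearest to the member with 1 symbol and the smallest adjusted p. Other genes named as examples were chosen after their values were seen. Alternatives were median centring, quantile normalization, a filter that removed dim probe sets (mean under the 40th percentile), a trended robust prior, array weights, a block for replicate number, each array left out and, for lists, averaging all 1-symbol probe sets of a gene.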

Additional observations from a re-analysis of the deposited data

How the results depend on the processing

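Over the 13 probe sets the count past the threshold was 2 under median centring, quantile normalization, the trended robust prior and array weights, and 1 to 3 with 1 array left out. With dim probe sets left out it was 0 of 8, because both called probe sets were among the 5 removed by that filter; limma then had 0 of 4 past the threshold among those with 1 symbol left. An unadjusted p under 0.05 was reached by 2 of the 8 and 1 of the 4. For probe sets with 1 symbol the count of 1 was 0 to 1 with 1 array left out. In those fits 2.22% to 10.6% of all probe sets passed. The dim H2-T23 probe set passed in all 11 alternatives that tested it (1.63 to 2.01, adjusted p = 0.000392 to 0.0220), and H2-Q10 in 7 of 11 (0.76 to 1.22). The members' median difference lay between 0.06 and 0.15.

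Over the 3 lists together, 9 genes passed as deposited, 5 after quantile normalization and 3 to 10 with 1 array left out. The assembly count of 4 was 0 after quantile normalization, 7 with array weights, 7 with all 1-symbol probe sets of each gene averaged and 0 to 6 with 1 array left out, and that of class I-like heavy chains was 0 to 1. Of all probe sets, 10.4% passed as deposited, 7.09% after quantile normalization and 14.59% with array weights. With 1 array left out, 2.22% to 10.6% of all probe sets passed. The 10.6% was without DBA/2J F1 replicate 1, where the assembly count was 6. The cause of these changes in count was not tested. Median centring moved the share higher in AKR/J F1 among all probe sets past the threshold from 49.4% to 61.9%.

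Replicate numbers were not shown to pair the samples, and the correlations of array deviations did not settle it. Those of same-numbered arrays were 0.20, 0.11 and 0.05, and each AKR/J F1 array correlated best with its same-numbered DBA/2J F1 array. However, DBA/2J F1 replicate 3 correlated best with AKR/J F1 replicate 2 (0.06). With the replicate block 2 probe sets with 1 symbol passed, the added one being H2-T3 at its _x_at probe set (-0.39, adjusted p = 0.0356 in limma), and 3 of 13 passed in all.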
